A study of Mus musculus with 11 samples.

Results

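The troponins and myosin light chains of striated muscle come as slow and fast versions encoded by separate genes, and 10 genes of this set were read in whole muscle lysates by their symbols: Tnnt1, Tnni1, Tnnc1, Myl2, Myl3 and Tpm3, counted here as slow, and Tnnt3, Tnni2, Tnnc2 and Myl1, counted as fast. All 10 were found among the 24421 symbols of the table, and 10 of 10 passed the filter on low counts. Troponin is the calcium switch of the thin filament. Troponin C binds calcium, troponin I holds the actin-myosin interaction off at rest, troponin T ties the complex to tropomyosin, and tropomyosin, the coiled coil along actin, covers or frees the myosin sites. The myosin light chains wrap the lever arm of the myosin head: Myl1 and Myl3 encode essential light chains, and Myl2 encodes the regulatory light chain of slow fibres and of the heart ventricle. Slow fibres carry slow isoforms together with the slow myosin heavy chain, and fast fibres carry fast isoforms. The mouse tibialis anterior is known as a predominantly fast muscle.

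The study compared mice labelled WTlFlox, written WT/flox here, with mice labelled WT. Its design text names a tamoxifen-inducible Cre at the Hic1 locus (Hic1CREERT2), a b-CATENIN allele whose exon 3 is floxed, and a Td.tomato reporter. The design text places the question in mesenchymal progenitors, whereas the genes described here are genes of muscle fibres. Whole tibialis anterior lysate came from 3 WT/flox mice (71B3, 71B4 and 71B5) and 2 WT mice (73A5 and 73A7), all labelled resting muscle at day 56 after tamoxifen and all male in the deposited sample table. Sorted progenitors, CD45-, CD31-, Sca1+, tdTomato+ and alpha7-, came from 3 WT/flox mice (74A1 and 72B7 at day 14, 74A3 at day 56) and 3 WT mice (72B8, 74A2 and 73C3 at day 14). No source used here gives the age of the mice or says whether the WT mice carried every transgene, although the WT cells too were sorted on tdTomato. The WT/flox numbers of the lysates all begin with 71B and the WT numbers with 73A, and what that prefix stands for cannot be told apart from genotype.

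To show the regulatory sequence behind the isoforms, the 250 bases before the RefSeq start of 2 slow and 2 fast genes are given 5′ to 3′ on the gene's own strand, with the E-box CANNTG, the core motif bound by myogenic factors, in capitals. They were read from build GRCm38.p6 at chr7:4515976-4516225 (minus strand), chr14:31208062-31208311 (plus), chr2:164779735-164779984 (minus) and chr1:66945057-66945306 (minus).
Tnnt1: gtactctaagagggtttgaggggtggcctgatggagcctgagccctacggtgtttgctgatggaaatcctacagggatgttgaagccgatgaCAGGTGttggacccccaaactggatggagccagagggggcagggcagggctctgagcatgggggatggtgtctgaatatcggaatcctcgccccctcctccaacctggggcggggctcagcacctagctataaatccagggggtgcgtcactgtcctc
Tnnc1: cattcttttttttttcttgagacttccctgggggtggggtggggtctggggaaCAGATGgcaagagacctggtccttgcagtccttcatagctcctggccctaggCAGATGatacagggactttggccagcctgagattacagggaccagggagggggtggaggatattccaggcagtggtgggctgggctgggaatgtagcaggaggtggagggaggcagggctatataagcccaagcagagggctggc
Tnnc2: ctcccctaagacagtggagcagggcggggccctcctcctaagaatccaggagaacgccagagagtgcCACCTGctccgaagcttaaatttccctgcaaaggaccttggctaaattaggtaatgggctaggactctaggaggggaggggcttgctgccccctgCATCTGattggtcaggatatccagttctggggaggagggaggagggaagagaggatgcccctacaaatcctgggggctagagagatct
Myl1: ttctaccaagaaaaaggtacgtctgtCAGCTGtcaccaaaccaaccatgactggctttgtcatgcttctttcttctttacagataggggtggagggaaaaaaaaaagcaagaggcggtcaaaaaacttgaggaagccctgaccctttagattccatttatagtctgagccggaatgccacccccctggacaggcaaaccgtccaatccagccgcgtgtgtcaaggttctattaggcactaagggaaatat
The RefSeq table matched 8 of the 10 members; Tnnt3 and Tnni2 were the others. Motifs were searched on both strands of the 250 bases. At least 1 CANNTG stood in each of the 4 sequences, as it did in 66.2% of all 32851 promoters of that length. The MCAT motif CATTCC stood in Tnnc1 and Myl1, and in 12.6% of all promoters. The letters TATAA stood in Tnnt1, Tnnc1 and Myl1, and in 22.8% of all promoters, and no match of one motif overlapped a match of another in the 4 sequences. The MEF2 consensus was in 0 of the 4, against 2.92% of all promoters. A match describes letters in this window and is not a binding site shown in these mice.

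Lysate libraries held 16892158 to 19449227 counts and progenitor libraries 13119843 to 16805238. The gene with the most counts was Atp2a1 in the WT/flox lysates and Myh4 in the WT lysates, both of fast fibres, although the deposited sample table calls the lysates FAPs. Ctnnb1, the targeted gene, had 283, 303 and 304 CPM (counts scaled to library size by TMM) in WT/flox lysates, against 324 and 271 CPM in WT lysates. Counts summed over all exons say nothing about whether exon 3 was lost. Libraries differed along transcript length: the 3060 genes with the shortest transcripts (174 to 2245 bases) had a median log2 deviation from their own mean of 0.12, 0.01 and -0.17 in 71B3, 71B4 and 71B5, against -0.11 and 0.19 in 73A5 and 73A7. The 3057 genes with the longest transcripts deviated the other way in 4 of the 5 libraries, by -0.12 in 71B3, 0.20 in 71B5, 0.12 in 73A5 and -0.15 in 73A7, and by 0.00 in 71B4. The members are short transcripts, with 9 of 10 in that shortest class and the other, Tpm3, at percentile 27.6 of length.

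No member passed the test between genotypes in muscle. Across the 12654 genes tested, edgeR's quasi-likelihood test (two-sided, Benjamini-Hochberg adjustment, threshold 0.05) called 0.727% (0.213% lower and 0.514% higher in WT/flox), and it called 0 of the 10 members. An unadjusted p under 0.05 was found for 0 of the members, and for 1226 of the 12654 genes. This background was counted for the main muscle fit only. DESeq2, which called 2.13% of all genes, and limma voom, which called 0.648%, also called 0 of 10, with 3 members by DESeq2 and 0 by limma voom at an unadjusted p under 0.05. The point estimates lay below 0 for 4 of 4 fast and 5 of 6 slow members, with a median log2 fold change (WT/flox over WT) of -0.46 for the fast and -0.37 for the slow ones, against 0.00 over all genes tested. Without WT library 73A7, all 6 slow members had estimates above 0, 5 of which had been below 0. Tnnc1, Myl2, Myl3, Tnnt3 and Tnnc2 each overlap a gene on the other strand (Nisch, Ccdc63, Pth1r, Prr33 and Ube2c in that order). The overlap is that of whole genes, introns included. Where exons overlap, which was not examined, reads cannot be told apart if counting ignored strand. In lysate, fewer fibres of a type and less RNA per fibre cannot be told apart.

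**Figure D1:**
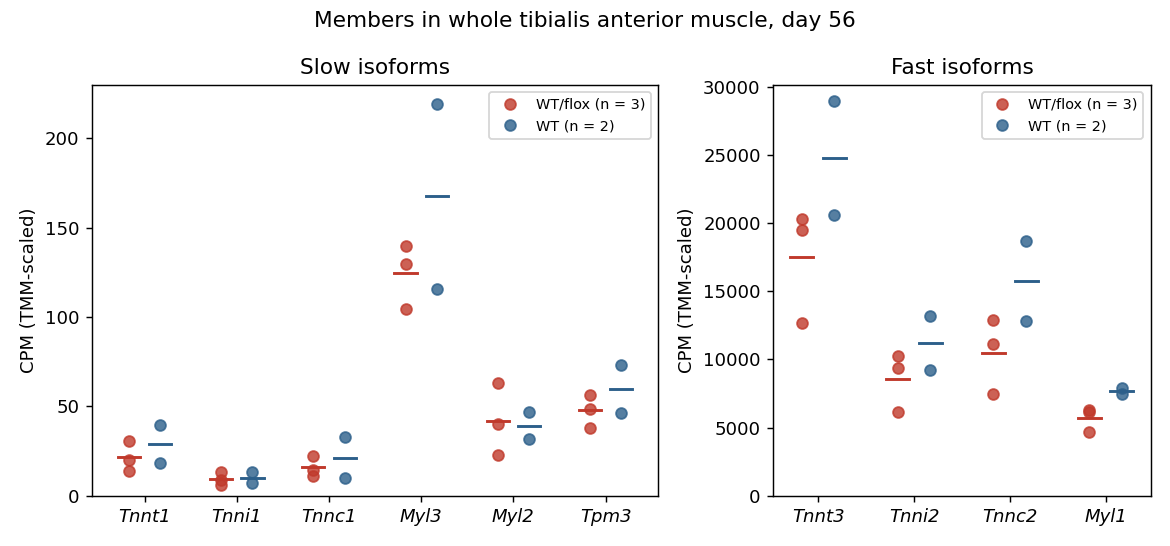
TMM-scaled CPM of the slow (left) and fast (right) members in each whole muscle library, WT/flox in red and WT in blue; points are libraries and bars are group means. Fast members lie between 4669 and 28948 CPM and slow members between 6.13 and 219 CPM, and WT/flox and WT points overlap for 8 of the 10 genes.

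Troponin C is the calcium sensor of the complex. The fast form Tnnc2 (ENSMUSG00000017300, GRCm38 chromosome 2, 164777161 to 164779967) had 12877, 11170.4 and 7460.5 CPM in WT/flox muscle, against 12849 and 18691 CPM in WT muscle. The WT library 73A7 was highest and the WT/flox library 71B5 lowest, and the groups overlapped by a narrow margin. The mean was 10503 ± 2769 CPM in WT/flox and 15769.8 ± 4131 CPM in WT (SD, n = 3 and n = 2), a log2 fold change of -0.59 (SE 0.27, 95% interval -1.22 to 0.05, edgeR adjusted p = 0.557). This was the largest estimate in size among the 10 members. The slow and cardiac form Tnnc1 (ENSMUSG00000091898, chromosome 14, 31208312 to 31211729) had 14.1, 22.5 and 10.8 CPM in WT/flox muscle, against 9.76 and 32.7 CPM in WT muscle. Both the lowest and the highest Tnnc1 library were WT, 3.35-fold apart, so the 3 WT/flox libraries lay inside the WT range. Its log2 fold change was -0.43 (SE 0.49, 95% interval -1.56 to 0.71, edgeR adjusted p = 0.872), and 0.69 without WT library 73A7.

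Troponin I, the inhibitory subunit, had the same highest and lowest library as Tnnc2 in its fast form. Tnni2 (ENSMUSG00000031097, chromosome 7, 142441808 to 142444410) had 10236, 9407 and 6125 CPM in WT/flox muscle, against 9192 and 13192 CPM in WT muscle. Only 71B5 lay outside the WT range, and the log2 fold change was -0.38 (SE 0.27, edgeR adjusted p = 0.749). The slow form Tnni1 (ENSMUSG00000026418, chromosome 1, 135779434 to 135810989) had 9.01, 13.3 and 6.13 CPM in WT/flox muscle, against 7.003 and 13.1 CPM in WT muscle. Its WT/flox libraries span the WT values on both sides. The log2 fold change was -0.09 (SE 0.36, 95% interval -0.93 to 0.75, edgeR adjusted p = 0.973), on 548 WT/flox and 322 WT counts. It was 0.03 when libraries were scaled by total counts, a scaling that puts the median of all genes at 0.13.

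Troponin T, the tropomyosin-binding subunit, also comes in both forms. Tnnt3, the fast form (ENSMUSG00000061723, chromosome 7, 142498836 to 142516009), had 20304, 19502 and 12714 CPM in WT/flox muscle, against 20626 and 28948 CPM in WT muscle. Its groups did not overlap, with 71B3 and 73A5 separated by a gap far smaller than the spread within either group. The log2 fold change was -0.50 (SE 0.26, 95% interval -1.11 to 0.11, edgeR adjusted p = 0.617). The slow form Tnnt1 (ENSMUSG00000064179, chromosome 7, 4504570 to 4516382) had 20.1, 30.7 and 14.1 CPM in WT/flox muscle, against 18.2 and 39.4 CPM in WT muscle. The groups overlapped, and the log2 fold change was -0.41 (SE 0.38, edgeR adjusted p = 0.831), or 0.25 without WT library 73A7.

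Among the myosin light chains, Myl1, the fast essential chain (ENSMUSG00000061816, chromosome 1, 66924295 to 66945404), had 6317, 6157 and 4669 CPM in WT/flox muscle, against 7876 and 7454 CPM in WT muscle. All 3 WT/flox libraries lay below both WT libraries, and Myl1 was the only fast member that was higher in 73A5 than in 73A7. Group means were 5714 ± 909 CPM in WT/flox and 7665 ± 298 CPM in WT (SD, n = 3 and n = 2). The log2 fold change of -0.42 (SE 0.19, 95% interval -0.87 to 0.02) had the smallest unadjusted p of the 10 members, and its edgeR adjusted p was 0.540. Tnnt3 and Myl1 were the 2 members whose libraries did not overlap, both lower in WT/flox, where 12.9% of all genes tested lie below WT without overlap. The slow essential chain Myl3 (ENSMUSG00000059741, chromosome 9, 110741861 to 110769798) had 139.9, 129 and 104 CPM in WT/flox muscle, against 116 and 219 CPM in WT muscle. The 3 WT/flox values sat close together while the 2 WT values were 1.89-fold apart, and the log2 fold change was -0.43 (SE 0.26, edgeR adjusted p = 0.689). It was 0.10 without 73A7.

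The slow regulatory chain Myl2 (ENSMUSG00000013936, chromosome 5, 122100951 to 122113472) had 62.9, 40.1 and 22.7 CPM in WT/flox muscle, against 31.7 and 46.6 CPM in WT muscle. It was the only slow member that was highest in 71B3, and the only member with an estimate above 0, a log2 fold change of 0.10 (SE 0.38, 95% interval -0.79 to 0.98, edgeR adjusted p = 0.972). Without 71B3 it was -0.32. Mylpf, the fast regulatory chain and not one of the 10, had 8490.5, 8132 and 4862 CPM in WT/flox muscle, against 9137 and 10693 CPM in WT muscle. Its log2 fold change of -0.47 (SE 0.26) had an edgeR adjusted p of 0.643.

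Tpm3 encodes the slow-fibre tropomyosin and, from other transcripts, tropomyosins of many other cells (ENSMUSG00000027940, chromosome 3, 90072649 to 90100902). It had 48.7, 56.5 and 38.0 CPM in WT/flox muscle, against 46.1 and 73.2 CPM in WT muscle, with overlapping groups and a log2 fold change of -0.32 (SE 0.24, edgeR adjusted p = 0.768). Without 73A7 it was 0.05. Its fast counterpart Tpm1 had 24176, 21281 and 17056 CPM in WT/flox muscle, against 20974 and 25389 CPM in WT muscle. The log2 fold change of Tpm1 was -0.15 (SE 0.22, edgeR adjusted p = 0.905).

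**Figure D2:**
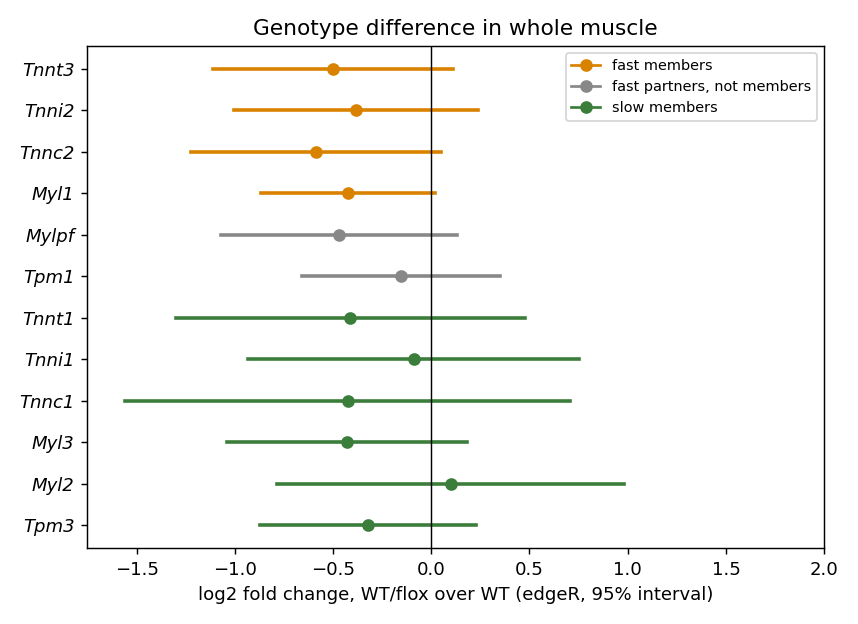
Log2 fold change, WT/flox over WT, of the 10 members and of the fast partners Mylpf and Tpm1 in whole muscle, with 95% intervals from the edgeR fit (3 against 2 libraries). Every interval contains 0, and the intervals of the slow genes Tnnt1, Tnni1, Tnnc1 and Myl2 are wider than those of the fast genes.

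Slow isoforms were a small fraction of their fast counterparts in every library. Counts per kb of exon (all exons of a gene merged) were used to set genes side by side. By mean level per kb, the fast members ran from Tnnc2 (13128 in WT/flox and 19712 in WT muscle) over Tnnt3 (11059 in WT/flox and 15658 in WT) and Tnni2 (5738 in WT/flox and 7476 in WT) to Myl1 (2755 in WT/flox and 3696 in WT). The slow members ran from Myl3 (60.9 in WT/flox and 82.0 in WT muscle) to Tnni1 (2.63 in WT/flox and 2.80 in WT muscle). Tnnc2 exceeded Tnnt3 per kb in all 5 libraries, while the ranges of the pair overlapped within each genotype. That order rests on the merged exon lengths, 800 bases for Tnnc2 and 1583 for Tnnt3. The longest transcripts have 700 and 1079 bases, and the order does not hold with those lengths. Summed over the members, slow isoforms were at 0.345, 0.373 and 0.369% of fast ones in WT/flox muscle, against 0.256 and 0.363% in WT muscle. The mean log2 ratio differed by 0.25 (WT/flox minus WT), with a two-sided exact permutation p of 0.4, where 3 against 2 libraries cannot go below 0.2. Without WT library 73A5 the difference was -0.0039. Myl3 stood at 2.25, 2.13 and 2.27% of Myl1 in WT/flox muscle, against 1.49 and 2.99% in WT muscle, the highest slow share of the 6 pairs. Tnni1 stood at 0.0366, 0.0587 and 0.0416% of Tnni2 in WT/flox muscle, against 0.0317 and 0.0414% in WT muscle, the lowest.

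Between these lay Tnnt1, at 0.0712, 0.113 and 0.0795% of Tnnt3 in WT/flox and 0.0634 and 0.0978% in WT muscle. Tnnc1 was at 0.0843, 0.155 and 0.111% of Tnnc2 in WT/flox and 0.0584 and 0.134% in WT muscle. All 3 slow troponin shares were highest in 71B4 and lowest in 73A5. Myl2 was at 0.404, 0.269 and 0.255% of Mylpf in WT/flox muscle, against 0.189 and 0.238% in WT muscle, the only pair whose groups did not overlap. Its log2 ratio differed by 0.51, with an exact permutation p of 0.2, the smallest the design allows, and an adjusted p of 0.8 over the 6 pairs. Tpm3 was at 0.215, 0.283 and 0.237% of Tpm1 in WT/flox muscle, against 0.234 and 0.307% in WT muscle, the only pair with a difference below 0 (-0.14). The exact permutation p-values of the other pairs ran up to 0.8, and all 6 adjusted p-values were 0.8.

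**Figure D3:**
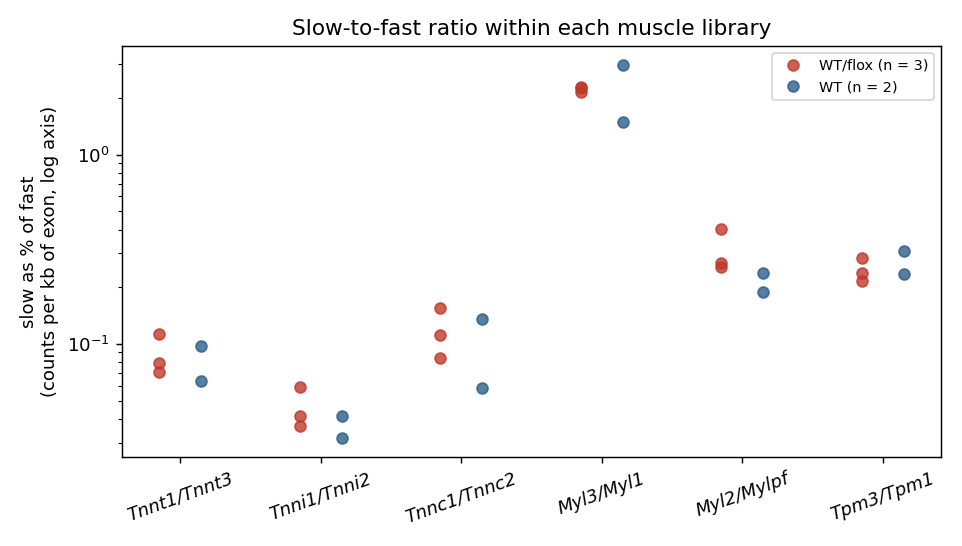
Slow isoform as a percentage of its fast counterpart, in counts per kb of exon on a log axis, for 6 pairs in each whole muscle library (WT/flox in red, WT in blue). Myl3/Myl1 lies between 1.49 and 2.99% and Tnni1/Tnni2 between 0.0317 and 0.0587%, and only Myl2/Mylpf has no overlap between genotypes.

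Members varied between libraries in a partly shared pattern, which the summed shares of some groups of other fibre genes showed too and others did not. The log2 distance from the lowest to the highest muscle library was 0.75 to 1.32 for fast and 0.95 to 1.74 for slow members, against a median of 0.57 over all genes tested. Library 71B5 was lowest for 4 of 4 fast and 5 of 6 slow members, and 73A7 was highest for 3 of 4 fast and 4 of 6 slow members. The 18 other fast-fibre genes together likewise took the lowest share of counts in 71B5, 16.3%, and the highest in 73A7, 20.3%, and so did the other thin-filament genes, at 5.06% in 71B5 and 6.73% in 73A7. The other thick-filament genes were lowest in 71B5, 6.36%, but highest in 73A5, 8.11%, next to 8.03% in 73A7. These sums are not independent, since the lists share abundant genes. Tpm1 is in both the thin-filament and fast-fibre lists, and Myh4 and Mylpf are in both the thick-filament and fast-fibre lists. The other slow-fibre genes were lowest in 73A5, 1.43%, and highest in 71B3, 1.70%, with 1.59% in 71B5 and 1.64% in 73A7. Mb, the most abundant gene of that list, was picked here after its values were seen. It had 11494, 10563 and 9212 CPM in WT/flox muscle, against 6881 and 7245 CPM in WT muscle, so this sum leans on Mb. Of the list's 16 log2 fold changes 13 lay below 0, and that of Mb lay above. Sums without Mb were not made. The 4 fast members together took 4.85, 4.598 and 3.52% of counts in WT/flox muscle, against 4.94 and 6.31% in WT muscle. The slow members took 0.0288, 0.0291 and 0.0223% in WT/flox muscle, against 0.0224 and 0.0392% in WT muscle. Within WT, 73A7 exceeded 73A5 for all 6 slow members, from 1.47-fold for Myl2 to 3.35-fold for Tnnc1, and by 1.40- to 1.45-fold for the 3 fast troponins. The class of shortest transcripts lay on the same side as the members in 71B5 (-0.17) and in 73A7 (0.19). In 73A5, where the class was at -0.11, all 6 slow members lay below their own means, from -0.15 for Tpm3 to -0.72 for Tnnc1. Tnni2 lay at -0.02 there, while Tnnt3, Tnnc2 and Myl1 lay above their means by 0.06, 0.09 and 0.30. In 71B3, where the class was at 0.12, 5 of 10 members lay below their means and the others above. The part of transcript length in the members' values was not tested. With library-specific offsets for transcript length and GC content in edgeR, added after the data were seen, the fast members lay at log2 fold changes of -0.48 to -0.29 and the slow ones at -0.31 to 0.16. This fit called 0 of 10 members and 1.38% of all genes, with 2 members, Tnnt3 and Tnnc2, at an unadjusted p under 0.05.

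**Figure D4:**
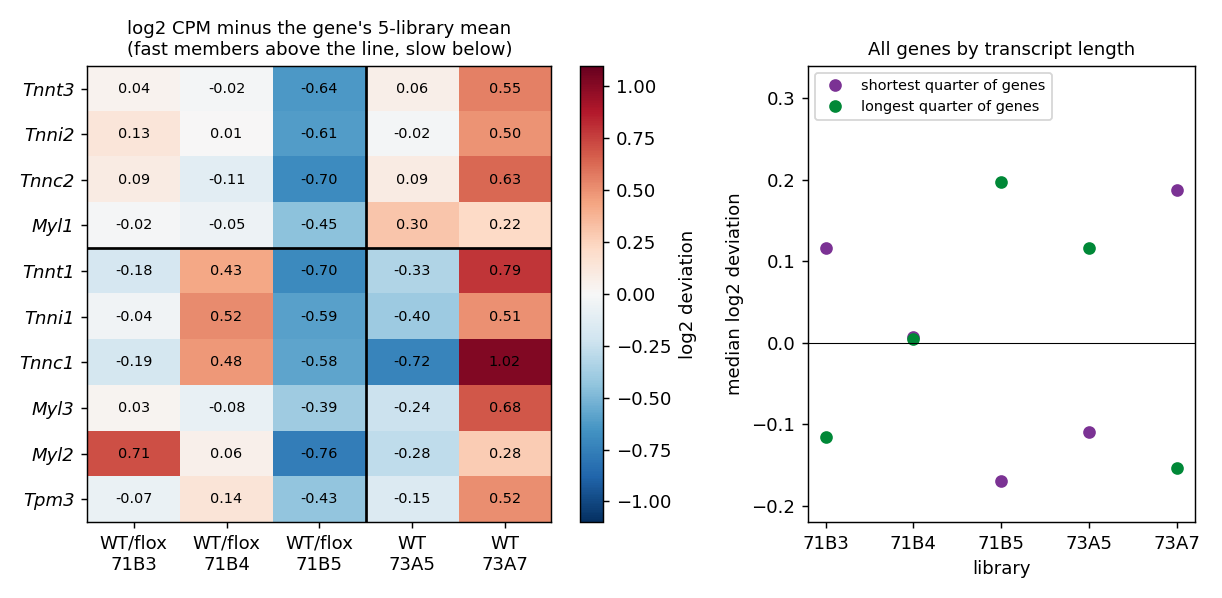
Left, log2 CPM of each member minus its mean over the 5 muscle libraries (blue low, red high), with WT/flox libraries left of WT; right, the median of the same deviation for the classes of shortest and longest transcripts among all genes tested. 71B5 is low across the members, from -0.39 to -0.76, and the class of shortest transcripts is at -0.17 there.

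Leaving out single muscle libraries left 0 of 10 members called each time but moved their estimates. Of all genes, edgeR then called 1.84% without 73A5, 1.6% without 73A7, 0.583% without 71B3, 0.199% without 71B4 and 0% without 71B5. With other settings, 0 of 10 members were called where 0.427% of genes were (total counts), 0.821% (no filter on low counts) or 1.36% (replicate block). The fast members ranged from -0.83 to -0.38 without 73A5, from -0.47 to -0.10 without 73A7, and from -0.39 to -0.19 without 71B5. Without 73A5, 5 members had an unadjusted p under 0.05 (Tnnt1, Tnnc1, Myl3, Tpm3 and Tnnc2), and the smallest edgeR adjusted p was 0.0705, that of Myl3.

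Genes with the nearest pattern were sought by the root mean square difference of log2 deviations over the 5 muscle libraries. For the mean of the fast members they were Etfb, Ptges3l, Tpm2, Gm15417 and Snrpb, at 0.0435 to 0.0609 among 6134 candidates. Of the fast members, which enter that mean, Tnnt3 lay at 0.0455 from it. Tnni2, Tnnc2 and Myl1, at 0.0714, 0.0887 and 0.161, lay farther from it than these genes did. Tpm2, the beta-tropomyosin gene, had 10222, 9029 and 6686 CPM in WT/flox muscle, against 10050.6 and 12981 CPM in WT muscle. For the mean of the slow members the nearest genes were Pltp, Lrg1, Lsp1, S100a6 and Chad, at 0.207 to 0.297 among 206 more variable candidates. Tnni1, Tpm3, Tnnt1 and Myl3 themselves, which enter that mean, lay at 0.137 to 0.181 from it. Tnnc1, at 0.280, lay farther from it than all of the 5 genes but Chad, and Myl2, at 0.360, lay farther than all 5.

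Other sarcomere genes set the members in context; these lists were drawn up with earlier results of the data known. Of 11 tested other thin-filament genes, 0 were higher and 1 was lower (0.213% of all genes were called lower by edgeR), at a median log2 fold change of -0.19. The lower one was Actc1, cardiac actin, with 16.1, 23.7 and 14.2 CPM in WT/flox muscle, against 109 and 106 CPM in WT muscle (-2.58, SE 0.22, edgeR adjusted p = 0.00546). Of 18 other thick-filament genes 0 were higher and 2 lower (median -0.32): the M-band gene Myom3 (-2.21, SE 0.21) and the myosin-binding protein gene Mybph (-5.78, SE 0.57). Of 16 other genes of slow fibres 0 were higher and 3 lower (median -0.59): Ankrd2, Csrp3 and the calsequestrin gene Casq2, which had 34.6, 42.8 and 37.7 CPM in WT/flox muscle, against 80.4 and 84.0 CPM in WT muscle (-1.099, SE 0.14, edgeR adjusted p = 0.0190). Of the 16 estimates 13 lay below 0. The slow heavy chain gene Myh7 overlapped, at 16.0, 43.1 and 13.3 CPM in WT/flox and 18.0 and 50.7 CPM in WT muscle (-0.51, SE 0.57, edgeR adjusted p = 0.870). Above 0 lay Atp2a2 (0.07, SE 0.22, edgeR adjusted p = 0.966) and Mb (0.56, SE 0.18, edgeR adjusted p = 0.320), among others. Myh7, Atp2a2 and Mb were picked after their values were seen. Mybph, Csrp3 and Casq2 did not pass without 71B3 or without 71B4, and 0 members of any of these lists passed without 71B5, where edgeR called 0 genes in all. DESeq2 called 8 of the slow-fibre list, where it called 2.13% of all genes, and edgeR called 7 without 73A5, where it called 1.84% of all genes.

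Of 18 other genes of fast fibres 0 were called (median -0.15; 1 at an unadjusted p under 0.05). Myh4, the heavy chain of the fastest fibres, had 24905, 25159 and 18959.8 CPM in WT/flox muscle, against 36563 and 35721 CPM in WT muscle. Its groups were apart, with a log2 fold change of -0.65 (SE 0.20) and an edgeR adjusted p of 0.299; DESeq2 called it (adjusted p = 0.0222), the 1 gene of the list it called. Atp2a1, the fast-fibre calcium pump, had 34367, 35803 and 25619.7 CPM in WT/flox muscle, against 29834 and 29099 CPM in WT muscle (0.12, SE 0.21, edgeR adjusted p = 0.929). Of 24 tested regulators of fibre type 0 were called (median 0.21; 4 at an unadjusted p under 0.05, 1 called with the length and GC offsets). Mef2c, a myocyte enhancer factor, stood at 0.43 (SE 0.16, edgeR adjusted p = 0.424) and Tbx15, a T-box factor, at 0.09 (SE 0.14, edgeR adjusted p = 0.917).

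Markers of other cells in the lysates were summed as a share of counts. The 8 progenitor markers took 0.159 to 0.177% in WT/flox and 0.0739 to 0.119% in WT muscle, led by Col1a2 and Dcn. In sorted progenitors Col1a2 was itself higher in WT/flox (log2 fold change 1.09, edgeR adjusted p = 0.0142), while Dcn was not called (0.46, edgeR adjusted p = 0.437). This share therefore cannot be read as a number of cells. The 8 endothelial markers (Cdh5 and Pecam1 leading) took 0.0327 to 0.0403% in WT/flox and 0.0396 to 0.0462% in WT muscle, and the 8 mural ones (Abcc9, Acta2) 0.0439 to 0.0657% in WT/flox and 0.0415 to 0.0646% in WT muscle. Immune (Lyz2, C1qa), adipocyte (Adipoq, Cidec) and tendon markers (Thbs4, Fmod) were all higher in WT library 73A7 than in 73A5, at 0.00855 against 0.00257%, 0.00394 against 0.00122% and 0.0485 against 0.0302%. So were progenitor (0.119 against 0.0739%) and muscle stem cell markers (0.0168 against 0.0142%). Endothelial (0.0396 against 0.0462%), mural (0.0415 against 0.0646%) and erythroid markers (3.20e-04 against 3.92e-04%) were lower in 73A7 than in 73A5. Slow members were high in 73A7. Muscle stem cell markers (Itga7, Cdh15) took 0.0118 to 0.0125% in WT/flox and 0.0142 to 0.0168% in WT muscle, although 2 of the 6 tested had a log2 fold change below 0 and the list's median was 0.13. Of 5 erythroid markers Alas2 had counts and the haemoglobin genes are listed at 0 in every library. In the lysates edgeR called 0 genes of these 8 lists, and the part of these cells in the members' values was not tested.

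In sorted progenitors the same genes had few counts, apart from Tpm3. Tpm3 had 98.0, 88.1 and 89.6 CPM in WT/flox progenitors, against 94.6, 91.9 and 107 CPM in WT progenitors (log2 fold change -0.09, SE 0.15, edgeR adjusted p = 0.962). Of the 10 members 5 passed the filter, Tpm3 and the 4 fast ones, and edgeR called 0 of them, where it called 3.66% of the 12392 genes tested (1.32% lower in WT/flox). It also called 0 of the members, and 3.79% of genes with total counts, 3.11% without the filter and 5.28% with length and GC offsets, as did limma voom with 3.32% of genes. The 5 slow members that did not pass had 3 to 30 counts over the WT/flox and 0 to 23 over the WT libraries.

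The fast members had low counts with the highest values in 1 WT library. Myl1 had 0.954, 0.516 and 1.59 CPM in WT/flox progenitors, against 1.28, 4.24 and 10.4 CPM in WT progenitors (-2.39, SE 0.71, edgeR adjusted p = 0.136). Tnni2 had 1.17, 1.84 and 1.67 CPM in WT/flox progenitors, against 2.33, 3.57 and 9.94 CPM in WT progenitors (-1.77, SE 0.52, edgeR adjusted p = 0.125), the only one of the 4 without overlap, where 8.17% of all genes lie below WT without overlap. Tnnc2 stood at -2.18 (SE 0.71, edgeR adjusted p = 0.189) and Tnnt3 at -1.15 (SE 0.41, edgeR adjusted p = 0.231). For each of the 4, WT library 73C3 was highest, and together they took 0.00506% of its counts, against 9.38e-04 and 0.00240% in the WT libraries 72B8 and 74A2 and 7.70e-04 to 9.92e-04% in WT/flox libraries. All 4 had an unadjusted edgeR p under 0.05, and the share of all progenitor genes below that limit was not counted. DESeq2 called 3 of the 4 (Tnni2, Tnnc2 and Myl1) and 5.55% of all genes. The replicate block gave 1 (Myl1) and 4.02% of all genes. Without WT library 72B8, edgeR called 4 of 4, and 2.41% of all genes (0.789% lower). It called 0 without each other library, where it called 3.49% of genes without 74A2, 3.85% without 73C3, 2.41% without 74A1, 2.12% without 72B7 and 2.08% without 74A3. Myh4, a fibre gene that progenitors are not known to use, had 1.32, 1.11 and 2.12 CPM in WT/flox and 1.36, 4.30 and 5.24 CPM in WT progenitors. The part of fibre RNA in these values was not tested.

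**Figure D5:**
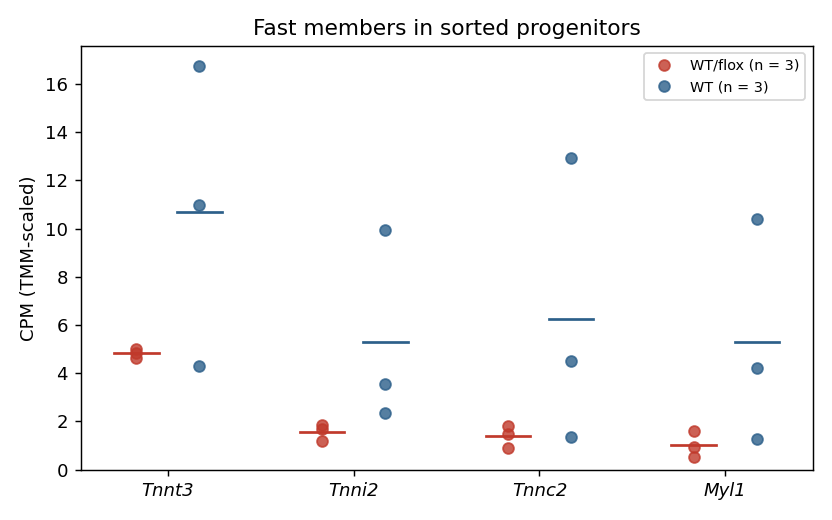
TMM-scaled CPM of the 4 fast members in sorted progenitors, WT/flox in red and WT in blue (n = 3 each; bars are means). The WT points spread widely, up to 16.8 CPM for Tnnt3, while the WT/flox points lie between 0.516 and 5.004 CPM.

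Whether the genotype difference differed between muscle and progenitors was tested as an interaction in 1 edgeR fit over 11 libraries. It called 0.769% of 13781 genes and 0 of the 10 members, with 1 member at an unadjusted p under 0.05. That was Myl1, whose log2 difference was higher in muscle than in progenitors by 2.06 (SE 0.83, edgeR adjusted p = 0.458). Day after tamoxifen changes with the material in this fit, apart from 74A3.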

How the data were processed

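The authors deposited raw counts per gene symbol, 1 table for the lysates and 1 for the sorted cells; both hold whole numbers. Per the labels' protocols, libraries were made with a stranded mRNA kit and read as pairs of 43 bases. Tools listed in the submitters' processing notes are bcl2fastq 2.20, STAR and Bowtie, with build mm10; how reads were counted, and whether by strand, is not given in the sources used here. Tnnc1, Myl2, Myl3, Tnnt3 and Tnnc2 each overlap a gene on the other strand in GENCODE M21, taken from gene start to gene end. Reads from any shared exon bases cannot be told apart if counting ignored strand. No unmapped column was used.

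Each table was tested alone with edgeR 4.0.16 in R 4.3.3: filterByExpr, TMM, robust quasi-likelihood F test, Benjamini-Hochberg over all genes tested. SEs are those implied by the F statistic. CPM are TMM-scaled. Coordinates and exon lengths are from GENCODE M21 (GRCm38), promoters from RefSeq (GRCm38.p6). Each library carries its own mouse number. Replicates differed beyond counting error (chi-square over its degrees of freedom, 9.65 to 84.4). The fits were tested on simulated data. DESeq2 1.42.0 and limma 3.58.1 were alternatives.

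Members, lists and tests were chosen with earlier results of these data known. Named genes are the 10 members, Mylpf, Tpm1 and Ctnnb1; up to 4 called genes per list, or its 2 most abundant; the 2 most abundant markers per cell type (1 marker list is not reported here); and the 5 genes nearest in pattern to the slow and to the fast mean (mean log2 CPM of at least 4, and for the slow mean an SD of at least 0.5). Genes whose levels are given outside these rules are marked as such where they appear. The slow and fast classes were set from textbook knowledge.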

Additional observations from a re-analysis of the deposited data

How the results depend on the processing

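All alternatives left 0 of 10 members called in muscle: DESeq2, limma voom, RLE scaling, total counts, no filter, a replicate block, length and GC offsets and leaving out each library. The count of all muscle genes called was 92 with edgeR, 265 with DESeq2, 54 with total counts, 139 without the filter, 178 with the replicate block and 169 with length and GC offsets; leaving out 1 library gave 0 (71B5) to 239 (73A5), with 207 without 73A7 and 25 without 71B4. The progenitor count of members was 3 with DESeq2, 1 with the replicate block and 0 to 4 when 1 library was left out (4 without 72B8). The replicate block used the rep numbers of the deposited sample table. Same-numbered libraries correlated in their deviations at -0.03 and -0.53 in muscle and 0.28, 0.01 and -0.17 in progenitors. In muscle the values against the WT libraries mirror each other, as for 71B5, at 0.53 against 73A5 and -0.53 against 73A7. With so few libraries per genotype, these correlations cannot decide whether the numbers pair the animals. The block and the offsets were chosen after seeing the data.

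These values changed sign; the cause was not tested. Without 73A7 log2 fold changes were 0.25 for Tnnt1, 0.43 for Tnni1, 0.69 for Tnnc1, 0.10 for Myl3 and 0.048 for Tpm3, and the Tpm3/Tpm1 ratio differed by 0.056. Without 73A5 Myl2 was at -0.15 and Ctnnb1 at 0.13, and the log2 ratio differences were -0.0039 for all slow over all fast, -0.18 for Tnnt1/Tnnt3, -0.25 for Tnnc1/Tnnc2 and -0.43 for Myl3/Myl1. The overall ratio difference ran from -0.0039 to 0.50 over the left-out libraries. Without 71B4 the Tnnt1/Tnnt3 difference was -0.065, without 71B5 Tnni1 was at 0.15, and without 71B3 Myl2 was at -0.32 and Ctnnb1 at 0.029. With total counts Tnni1 was at 0.025 and Ctnnb1 at 0.12; with the replicate block Myl2 was at -0.35 and Ctnnb1 at 0.033; with limma voom Ctnnb1 was at 0.0015. With 3 against 2 libraries, differences of about the size of a member's SE were not detectable, and larger ones were not called either. Tnnc2 (-0.59, SE 0.27) and Myl1 (-0.42, SE 0.19) had unadjusted edgeR p-values of 0.0665 and 0.0591.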

Other observations

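Genes of the heart and embryo that share the families had few counts in the lysates; Tnnt2, Tnni3, Myl4 and Myl7 fall outside the rule for named genes and were chosen after their values were seen. Tnnt2, the cardiac troponin T gene that lies 25364 bases from Tnni1, had 8.43, 7.26 and 6.80 CPM in WT/flox muscle, against 5.45 and 7.50 CPM in WT muscle. Tnni3, the cardiac troponin I gene that lies 1922 bases from Tnnt1 on the same strand, had at most 0.239 CPM in WT/flox and 0.128 CPM in WT muscle. Myl4, the atrial and embryonic essential light chain, had 16.2, 10.7 and 11.1 CPM in WT/flox muscle, against 11.7 and 11.9 CPM in WT muscle. Myl7, the atrial regulatory chain, had 0 counts in every lysate. Of 6 tested embryonic and cardiac isoforms 0 were higher and 1 lower by edgeR, Actc1 again, with a median log2 fold change of -0.09; 0 passed without 71B5.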
